A study of Mus musculus with 6 samples.

Results

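The Toll-like receptors of mouse macrophages are described here by the 10 rows Tlr1, Tlr2, Tlr3, Tlr4, Tlr5, Tlr6, Tlr7, Tlr8, Tlr9 and Tlr13 of a table of 23946 genes, chosen by gene name and found in full. Cells sorted as macrophages, by CD45, CD11b and the antigen encoded by Emr1, came from the omentum (OM) and from the mesenteric adipose tissue (MY) of female C57BL/6 mice, 6 to 8 weeks old by the study's methods. The study compared naive mice (OM 0h, MY 0h) with mice given ID8 cells, a mouse ovarian carcinoma line, 24 h (OM 24h, MY 24h) or 7 d (OM 7d, MY 7d) earlier. The design text gives 9 mice in all and 3 per group, the methods describe pooled omenta, and each of the 6 groups of tissue and time is 1 library. No value therefore has a replicate error, no p-value is given, and each difference describes the libraries it compares. All of the groups share the strain and the sort, and whether a naive mouse received a mock injection is not stated in the labels.

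Toll-like receptors are membrane proteins that recognise molecules of microbes and of damaged cells and are best known from macrophages and other innate immune cells. Tlr1, Tlr2, Tlr4, Tlr5 and Tlr6 act mainly at the cell surface on lipids and proteins, whereas Tlr3, Tlr7, Tlr8, Tlr9 and Tlr13 act in endosomes on nucleic acids. After binding, they recruit the adaptors Myd88 or Ticam1, which lead through kinases to NF-kB and interferon regulatory factors and to the transcription of cytokine genes. Tlr2 works as a pair with Tlr1 or Tlr6, and Tlr4 works with the co-receptors Cd14 and Ly96.

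Levels are given as fragments per kilobase of transcript and per 1000000 mapped fragments (FPKM), a scale corrected for gene length. Differences are given on the log2(FPKM + 1) scale, which understates differences of genes with a low FPKM, and a gene was counted as higher or lower at 2-fold or more on this scale. Genes that reached an FPKM of 1 in any library were taken as expressed, which held for 13064 genes and for all 10 receptors, although Tlr9 passed only through OM 0h. FPKM does not tell how many reads stand behind a level. The commonest ratio of low FPKM values put the rough depth of the libraries at 0.859 (OM 0h) to 1.48 (OM 7d) times that of MY 0h. Where 3 values are given for a tissue without naming the libraries, they are those of 0 h, 24 h and 7 d in that order.

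The 6 macrophage markers checked (Emr1, Csf1r, Cd68, Mertk, Fcgr1 and Itgam) reached an FPKM of 1 in all 6 libraries, but markers of other cells were present as well. The macrophage markers summed to between 338 and 1572 FPKM in the omentum and between 276 and 602 in the mesentery, and each of the 6 was highest in OM 24h. Their geometric mean was 34.3, 137 and 29.6 in the omentum and 21.7, 46.5 and 27.1 in the mesentery. The neutrophil list summed to between 5828 and 14516 in the omentum against 228 to 657 in the mesentery. Most of the omental sum was S100a8 (3020, 7826 and 8381) and S100a9 (2397, 4836 and 5621). Of the 5 markers, 3 were higher in every omental library than in every mesenteric one. Cxcr2 (5.14, 14.0 and 3.43 against 4.56, 5.59 and 4.20) and Csf3r (6.21, 24.1 and 9.36 against 5.99, 13.4 and 6.46) overlapped. The B cell list summed to between 904 and 3967 in the omentum against 524 to 1539 in the mesentery. T cell markers summed to between 18.4 and 127 in the omentum and between 610 and 1296 in the mesentery, and NK cell markers to between 4.17 and 82.0 against 176 to 436. Fibroblast markers summed to between 202 and 1105 in the omentum and to at most 2.49 in the mesentery, and mesothelial markers to between 37.6 and 392 against at most 0.334. In these bulk samples, fewer cells of a type and less RNA per cell cannot be told apart, and the part of these cells in the results below was not tested, except where levels set to equal macrophage markers are given. That rescaling, chosen after seeing the data, scales the libraries so that the 6 macrophage markers have the same geometric mean in each.

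In the NCBIM37 assembly (mm9) with the GENCODE M1 annotation, the 10 genes lie on 7 chromosomes. Tlr1 (chr5:65316050-65324000) and Tlr6 (chr5:65344345-65351287) stand 20344 bases apart on the minus strand, and Tlr8 (chrX:163680626-163702261) and Tlr7 (chrX:163742861-163768490) stand 40599 bases apart on the minus strand. Tlr13 lies elsewhere on the same chromosome (chrX:103338543-103355832, plus strand). Tlr2 lies at chr3:83640195-83645689 (minus), Tlr3 at chr8:46481019-46495962 (minus), Tlr4 at chr4:66488618-66591318 (plus), Tlr5 at chr1:184884919-184906175 (plus) and Tlr9 at chr9:106124929-106129207 (plus). Tlr4 is the longest of these genes at 102701 bases, and Tlr3 has the most exons, 7. The longest coding transcripts of Tlr1 and Tlr6 share 340 windows of 75 bases on the same strand, out of 2578 in Tlr1 and 2529 in Tlr6, so that reads there could have been split between them and both values are uncertain to that extent. The other 8 members shared 0 such windows with another member. Among its protein-coding, processed transcript and antisense genes, the annotation lists none that overlaps a member, and other gene types were not checked.

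The sequences just upstream of the 5 members that were higher by at least 2-fold in OM 24h than in OM 0h (Tlr1, Tlr2, Tlr5, Tlr8 and Tlr13) are shown because the result at 24 h turns on these members. They were taken from RefSeq promoters (GRCm38.p6), and each had exactly 1 match on the chromosomes of the members in NCBIM37, whose coordinates are given. Bases inside the annotated gene were left out, which leaves 91 bases for Tlr2, 179 for Tlr13 and 250 for each of the others. Each is written 5′ to 3′ on the strand of its gene, and capitals mark a match to a motif that was searched on both strands: the PU box GAGGAA bound by the myeloid factor PU.1, the NF-kB consensus, or the IRF motif of a pair of GAAA with NN in between.
Tlr2, chr3:83645690-83645780, minus strand: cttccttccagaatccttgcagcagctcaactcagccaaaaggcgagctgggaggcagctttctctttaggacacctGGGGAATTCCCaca
Tlr1, the more distant of its RefSeq starts, chr5:65324798-65325047, minus strand: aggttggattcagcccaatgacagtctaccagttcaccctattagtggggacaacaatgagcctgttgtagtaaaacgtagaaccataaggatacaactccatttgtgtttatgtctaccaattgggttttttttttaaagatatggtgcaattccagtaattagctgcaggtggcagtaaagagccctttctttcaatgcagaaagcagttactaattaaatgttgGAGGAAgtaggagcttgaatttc
Tlr13, chrX:103338364-103338542, plus strand: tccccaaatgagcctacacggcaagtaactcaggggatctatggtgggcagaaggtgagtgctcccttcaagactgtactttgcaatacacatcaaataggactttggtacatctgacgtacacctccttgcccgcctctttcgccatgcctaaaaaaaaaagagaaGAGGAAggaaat
Tlr8, chrX:163702262-163702511, minus strand: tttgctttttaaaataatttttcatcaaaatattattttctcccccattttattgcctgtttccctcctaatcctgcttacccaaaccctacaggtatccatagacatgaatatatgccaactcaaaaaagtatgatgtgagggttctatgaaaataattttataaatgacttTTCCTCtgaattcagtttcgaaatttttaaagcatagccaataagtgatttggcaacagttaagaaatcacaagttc
Tlr5, chr1:184884669-184884918, plus strand: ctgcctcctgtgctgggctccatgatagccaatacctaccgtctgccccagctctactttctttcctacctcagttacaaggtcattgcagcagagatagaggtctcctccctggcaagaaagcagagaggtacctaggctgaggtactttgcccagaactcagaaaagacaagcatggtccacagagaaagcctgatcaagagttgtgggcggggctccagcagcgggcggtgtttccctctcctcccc
The capitals of Tlr2 are an NF-kB match that reads on both strands, counted as a pair of overlapping matches at positions -173 and -172 from the RefSeq start. Those of Tlr1, Tlr13 and Tlr8 are PU boxes at positions -23, -83 and -77, the one of Tlr8 on the opposite strand, and Tlr5 held no match. The nearer RefSeq start of Tlr1, not shown, held no match either. Over the full 250 bases before the start, a PU box was found for 4 of the 8 members that have a RefSeq promoter (Tlr1, Tlr8, Tlr9 and Tlr13), or in 4 of their 10 promoters, against 23.3% of 32851 promoters. NF-kB matches were found for 2 of 8 (Tlr2 and Tlr3), or 2 of 10 promoters, against 7.25% of all promoters. IRF matches were found for 1 of 8 (Tlr6, with an overlapping pair), or 1 of 10 promoters, against 2.98%. These matches are a description of letters and not of binding.

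Tlr2 was the most abundant receptor of the omental libraries, and Tlr1 was that of the mesenteric ones. The FPKM of Tlr2 was 31.3, 104 and 49.3 in the omentum against 7.36, 11.8 and 9.92 in the mesentery. That of Tlr1 was 13.3, 33.3 and 14.1 in the omentum against 19.0, 20.4 and 22.9 in the mesentery. Thus the levels of Tlr2 did not overlap between the tissues, while those of Tlr1 did, since only OM 24h exceeded the mesentery. Tlr13, the receptor for bacterial ribosomal RNA, was second in every library except OM 0h, where Tlr7 was second and Tlr13 ranked 4. At the other end, Tlr9, the receptor for unmethylated CpG DNA, was last in 5 libraries, and Tlr5, the flagellin receptor, was last in OM 0h and ninth in each of the others. With 1 library per group, it cannot be said which neighbours in these orders differ beyond their error.

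**Figure D1:**
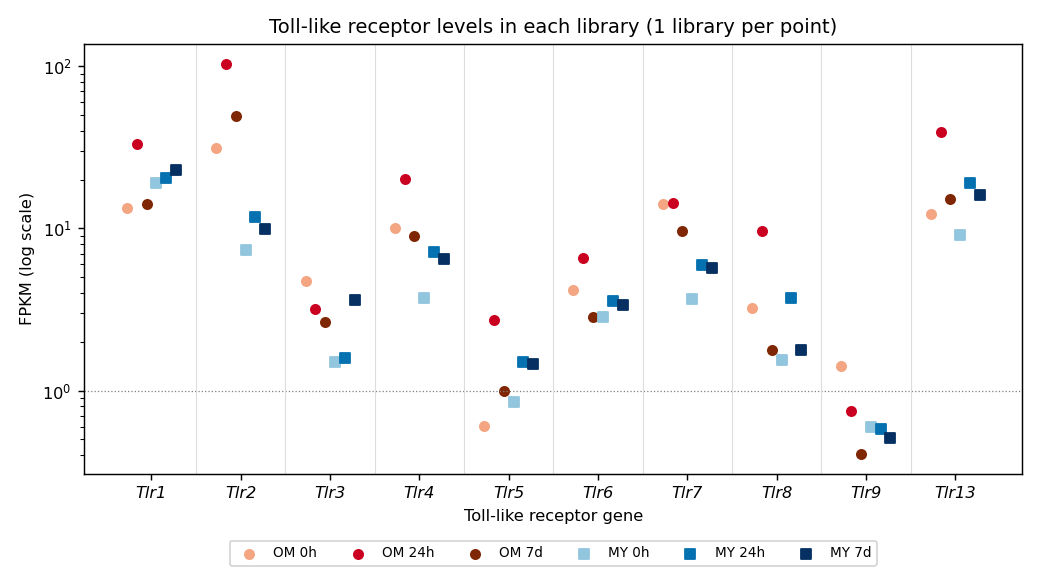
FPKM of the 10 Toll-like receptors on a log scale, 1 point per library, with omental libraries as circles and mesenteric libraries as squares, and a dotted line at an FPKM of 1. The 3 omental points lie above the 3 mesenteric ones for Tlr2, Tlr4 and Tlr7 in the deposited FPKM; with libraries set to equal macrophage markers this held for Tlr2 alone.

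The 10 receptors summed to 95.4, 234 and 106 FPKM in the omentum and to 50.2, 75.3 and 71.7 in the mesentery. Tlr2 made up 32.8%, 44.4% and 46.6% of this sum in the omentum and between 13.8% and 15.7% in the mesentery. Tlr1 made up between 13.3% and 14.2% in the omentum and between 27.1% and 37.9% in the mesentery, so that the pair changed places between the tissues. The ratio of Tlr2 to Tlr1 was 2.35, 3.12 and 3.50 in the omentum, whereas in the mesentery it was the ratio of Tlr1 to Tlr2 that exceeded 1, at 2.59, 1.73 and 2.31. Such ratios are taken within a library and do not depend on how libraries are scaled. The surface receptors together held 62.4%, 71.2% and 72.0% of the sum in the omentum and 67.3%, 58.9% and 61.6% in the mesentery, so that the tissues did not stand apart in this share at 0 h.

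**Figure D2:**
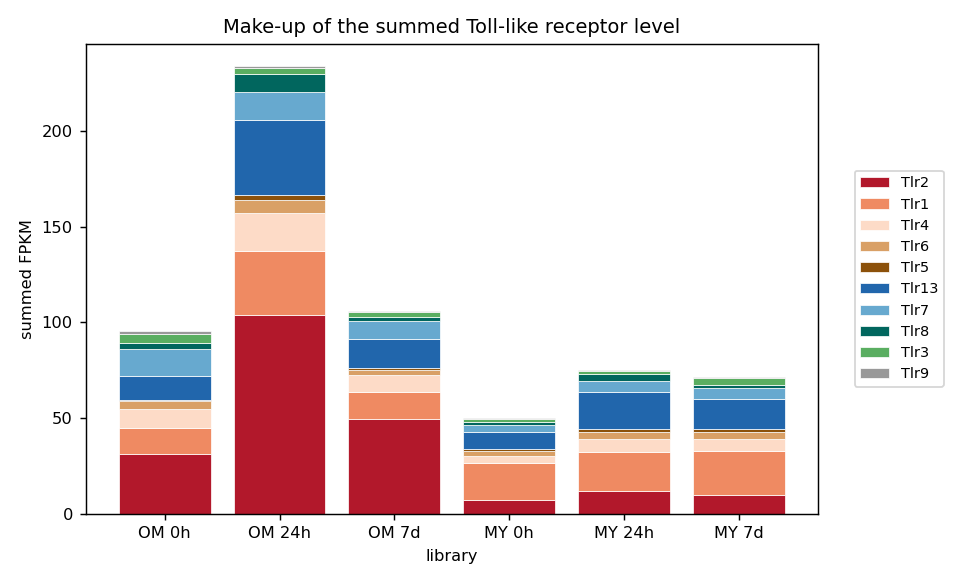
Summed FPKM of the 10 receptors in each library as stacked bars from 0, with surface receptors in red to brown and endosomal receptors in blue, green and grey. Tlr2 fills 32.8% to 46.6% of the omental bars and 13.8% to 15.7% of the mesenteric bars, and the bar of OM 24h is the tallest at 234 FPKM.

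Among the surface receptors, Tlr4, which senses bacterial lipopolysaccharide, followed Tlr2 in being higher in every omental library than in every mesenteric one. Its FPKM was 10.1, 20.1 and 8.97 in the omentum and 3.70, 7.11 and 6.52 in the mesentery. The lowest omental level of Tlr4 was 1.26 times the highest mesenteric one, and that of Tlr2 was 2.65 times. Tlr6, the alternative partner of Tlr2, had an FPKM of 4.18, 6.54 and 2.85 in the omentum and 2.84, 3.55 and 3.38 in the mesentery, and its 6 levels spanned less than 2-fold on the log2(FPKM + 1) scale. Tlr5 had an FPKM of 0.608, 2.72 and 0.998 in the omentum and 0.853, 1.503 and 1.45 in the mesentery, so that it reached 1 only in OM 24h and the later mesenteric libraries. These low levels of Tlr5 overlapped between the tissues.

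Among the endosomal receptors, Tlr7, which senses single-stranded RNA, was the one that stayed apart between the tissues. The FPKM of Tlr7 was 14.1, 14.3 and 9.67 in the omentum and 3.69, 5.97 and 5.70 in the mesentery. Its neighbour Tlr8, a receptor for RNA breakdown products, had an FPKM of 3.21, 9.68 and 1.78 in the omentum and 1.55, 3.73 and 1.78 in the mesentery. The ratio of Tlr7 to Tlr8 was lowest at 24 h in both tissues, at 1.47 (omentum) and 1.60 (mesentery), against 4.40 and 5.43 in OM 0h and OM 7d and 2.38 and 3.21 in MY 0h and MY 7d. Tlr13 had an FPKM of 12.3, 39.4 and 15.1 in the omentum and 9.08, 19.1 and 16.0 in the mesentery, with the highest level of each tissue at 24 h. Tlr3, the receptor for double-stranded RNA, had an FPKM of 4.76, 3.16 and 2.66 in the omentum and 1.503, 1.58 and 3.62 in the mesentery, and Tlr9 had 1.42, 0.744 and 0.405 against 0.598, 0.578 and 0.507. Tlr3 and Tlr9 were the members that were not highest in OM 24h. Both were highest in OM 0h, which for Tlr9 was fixed, since only that library kept it. The B cell markers also had their highest sum in OM 0h (3967). Their next highest sum was in OM 7d (2447), where Tlr9 was lowest of all libraries and Tlr3 lowest of the omentum. The part of B cells in these levels was not tested.

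Between the naive tissues, Tlr2, Tlr3, Tlr4 and Tlr7 were higher by at least 2-fold in OM 0h than in MY 0h and no member was 2-fold lower. Of all expressed genes, 8.18% were higher and 8.05% lower by the same rule. The log2 difference was 1.95 for Tlr2 (4.26 times in FPKM), 1.69 for Tlr7 (3.83 times), 1.24 for Tlr4 (2.73 times) and 1.20 for Tlr3 (3.17 times). The 10 receptors had a median log2 difference of 0.66, with 8 above 0, against 0.01 over all expressed genes. Tlr9 had to be among these 8, since it was kept only by its level in OM 0h. Tlr1 and Tlr5 were the members on the mesenteric side, with log2 differences of -0.48 and -0.20. With libraries set to equal macrophage markers, Tlr2 and Tlr7 remained at least 2-fold higher in OM 0h, at 1.37 for Tlr2, Tlr1 came out at -1.12, and the median of all genes moved to -0.56. A rescaling to a sum of 1000000 kept 4 members higher and changed the split of all genes to 7.84% higher and 12.5% lower, with their median at -0.19.

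At 24 h after the injection, Tlr2, Tlr4, Tlr7, Tlr8 and Tlr13 were higher by at least 2-fold in OM 24h than in MY 24h, beside 13.9% of expressed genes higher and 10.2% lower, but with libraries set to equal macrophage markers Tlr2 alone kept its sign. The deposited FPKM gave log2 differences of 3.03 for Tlr2 (8.80 times in FPKM), 1.38 for Tlr4, 1.17 for Tlr8, 1.13 for Tlr7 and 1.01 for Tlr13. All 10 members were above 0, with a median of 0.87 against 0.00 for all expressed genes. At equal macrophage markers, Tlr2 was 1.49 and the other 4 were -0.051 for Tlr4, -0.14 for Tlr8, -0.25 for Tlr7 and -0.48 for Tlr13, while the median of all genes was -1.18. A sum of 1000000 left 2 members higher and gave 11.8% of all genes higher and 16.9% lower, with a median of -0.27. At 7 d, Tlr2 was the 1 member at least 2-fold higher in OM 7d than in MY 7d (log2 difference 2.205, 4.97 times in FPKM), with 14.1% of expressed genes higher and 4.99% lower. There the median of the 10 was -0.09, and Tlr1 stood at -0.66 and Tlr7 at 0.67.

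Taking the 3 time points of a tissue together, Tlr2, Tlr4 and Tlr7 were above in every omental library, 0 members were below and 7 overlapped, but only Tlr2 stayed apart with libraries set to equal macrophage markers. Of all expressed genes, 16.7% were above and 17.7% below in this way, or 11.6% and 25.9% after rescaling to a sum of 1000000 and 5.63% and 13.6% at equal macrophage markers. Leaving out the libraries of 24 h separated 5 members, with Tlr8 joining those above and Tlr1 below, beside 25.1% of all expressed genes above and 25.995% below. Leaving out those of 7 d separated 6, with Tlr3, Tlr6 and Tlr9 joining Tlr2, Tlr4 and Tlr7, beside 26.3% of genes above and 25.7% below. Of these, Tlr9 was kept only by its level in OM 0h, which put that library above the rest. Its level in OM 24h (0.744) was not fixed in this way. It was above MY 0h (0.598) and MY 24h (0.578), with all of these under an FPKM of 1. The libraries of a tissue are different time points and not replicates.

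**Figure D3:**
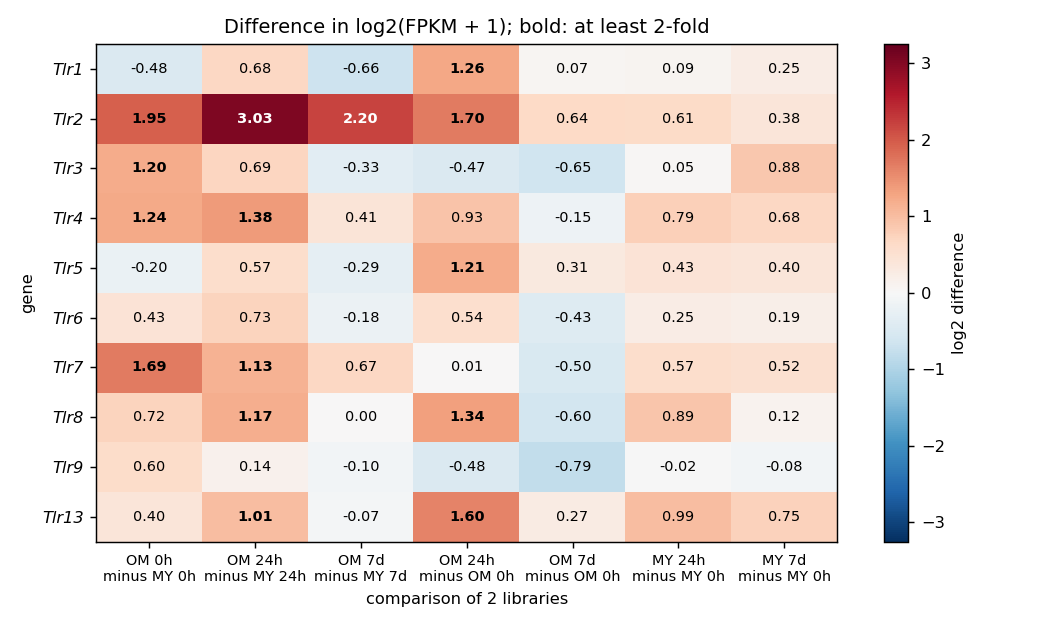
Differences in log2(FPKM + 1) of the 10 receptors in the 7 comparisons of libraries, as a colour scale with each value printed and values of at least 2-fold in bold. Tlr2 is bold in all 3 comparisons of the tissues (1.95, 3.03 and 2.205); with libraries set to equal macrophage markers the bold values of OM 24h reversed, except Tlr5 against OM 0h and Tlr2 against MY 24h.

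In the omentum, Tlr1, Tlr2, Tlr5, Tlr8 and Tlr13 were higher by at least 2-fold in OM 24h than in OM 0h by the deposited FPKM, whereas at equal macrophage markers the sign turned for all of these but Tlr5. Of all expressed genes, 11.9% were higher and 6.45% lower. The log2 difference was 1.70 for Tlr2 (3.32 times in FPKM), 1.60 for Tlr13 (3.20 times), 1.34 for Tlr8 (3.01 times), 1.26 for Tlr1 (2.49 times) and 1.21 for Tlr5 (4.48 times). Tlr4 stood just under the threshold at 0.93, Tlr6 was at 0.54, and Tlr7 at 0.01 was level, its FPKM being 14.1 and 14.3. Tlr3 and Tlr9 were below 0, at -0.47 and -0.48. For Tlr9 the direction was fixed, since it was kept only by its level in OM 0h. The median of the 10 was 1.07, against 0.00 over all expressed genes.

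The markers of the sorted cells moved in the same library. Emr1, the gene of the sorted antigen, was 4.93 times as high in OM 24h as in OM 0h, Csf1r 4.32 times, Mertk 4.08 times, Cd68 3.19 times and Fcgr1 8.94 times, while Itgam, the gene of CD11b, was 1.65 times as high, and the summed macrophage list was 3.41 times as high. The neutrophil list summed to 5828 in OM 0h and 13573 in OM 24h, the mesothelial list to 37.6 and 306, the monocyte list to 514 and 905, the B cell list to 3967 and 904, and the NK cell list to 82.0 and 4.17. At equal macrophage markers, 0 members were higher by at least 2-fold in OM 24h than in OM 0h and 4 were lower, beside 1.42% of all expressed genes higher and 70.4% lower. The log2 difference was then -0.26 for Tlr2, -0.30 for Tlr13, -0.31 for Tlr8, -0.63 for Tlr1 and 0.07 for Tlr5, with -1.76 for both Tlr3 and Tlr7, and the median of all genes was -1.54. A sum of 1000000 kept 5 members higher and gave 10.7% of all genes higher and 10.5% lower, with their median at -0.17.

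**Figure D4:**
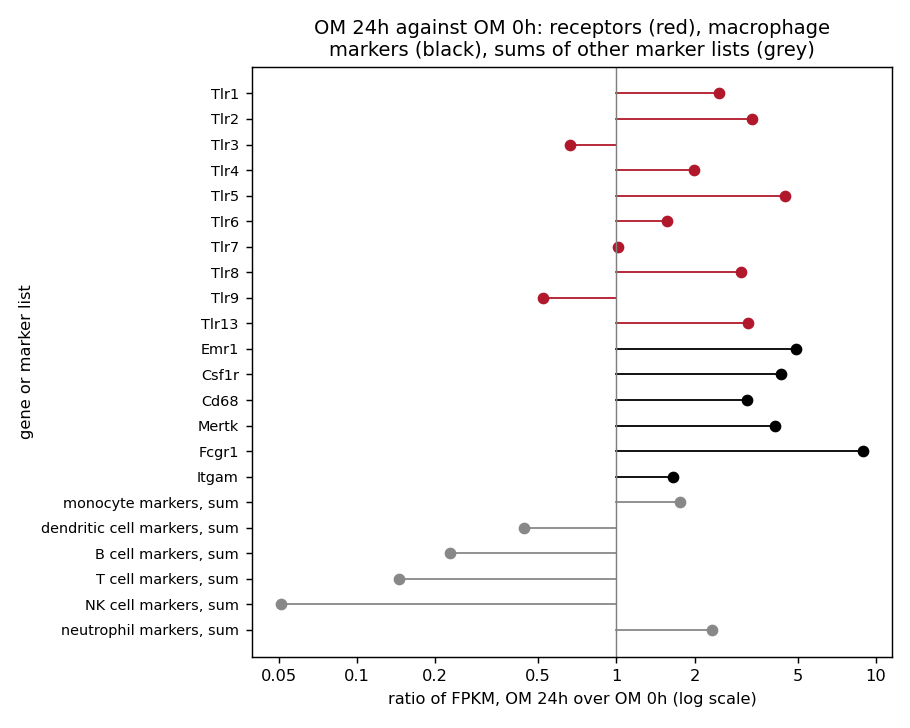
Ratio of FPKM in OM 24h over OM 0h on a log scale, for each receptor (red), each macrophage marker (black) and the sums of the other marker lists (grey). The ratios of Tlr1, Tlr2, Tlr5, Tlr8 and Tlr13 lie between 2.49 and 4.48, within the range of the macrophage markers (1.65 to 8.94), and at equal macrophage markers all of these but Tlr5 reversed on the log2(FPKM + 1) scale.

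By 7 d the receptors of the omentum had no member at least 2-fold from OM 0h, against 11% of expressed genes higher and 1.96% lower. The log2 difference was 0.64 for Tlr2, 0.31 for Tlr5 and 0.27 for Tlr13, and -0.79 for Tlr9, -0.65 for Tlr3 and -0.60 for Tlr8, with a median of -0.29. With a pseudocount of 0.1, Tlr9 passed the threshold on the lower side at -1.59, beside 3.49% of expressed genes. Its direction was fixed, since Tlr9 was kept only by its level in OM 0h. In the mesentery, no member passed the threshold at 24 h or at 7 d on the log2(FPKM + 1) scale. In FPKM, Tlr8 was 2.41 times and Tlr13 2.10 times as high in MY 24h as in MY 0h. Tlr3 was 2.41 times as high in MY 7d as in MY 0h. At 24 h, 9 of the 10 were above 0 with a median of 0.50, the highest being Tlr13 (0.99), Tlr8 (0.89) and Tlr4 (0.79), but at equal macrophage markers 8 of the 9 turned below 0 and Tlr8 was at 0.13. Of all expressed genes, 2.8% were higher and 1.52% lower in MY 24h than in MY 0h, or 2.83% and 2.90% at a sum of 1000000. At 7 d, 9 of the 10 were again above 0 with a median of 0.39, led by Tlr3 (0.88), Tlr13 (0.75) and Tlr4 (0.68), against 0.498% of expressed genes higher and 2.29% lower. Tlr1, Tlr6 and Tlr8 of these turned below 0 at equal macrophage markers. The comparisons with OM 0h share that library, as those with MY 0h share theirs.

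The proteins that serve these receptors were followed through 67 genes in 7 lists, of which 63 were expressed. Between OM 0h and MY 0h, 19 were at least 2-fold higher and 6 lower, beside 8.18% and 8.05% of all expressed genes. At equal macrophage markers the numbers became 13 higher and 12 lower, beside 5.28% and 21.8% of all genes. None of the 25 changed sign under that rescaling or at a sum of 1000000. Between OM 24h and MY 24h, 23 were higher in the omentum and 6 lower, beside 13.9% and 10.2% of all genes. These became 19 and 12 at a sum of 1000000, beside 11.8% and 16.9% of all genes. They became 9 and 30 at equal macrophage markers, beside 3.56% and 59.1% of all genes. Between OM 7d and MY 7d the numbers were 16 and 4, beside 14.1% and 4.99% of all genes. Between OM 24h and OM 0h they were 14 and 4, beside 11.9% and 6.45% of all genes. At a sum of 1000000 they were 10 and 8 (10.7% and 10.5%), where Ccl3, Ikbke, Il1b and Il6 were no longer 2-fold higher. At equal macrophage markers they were 1 and 47, beside 1.42% and 70.4% of all genes, with 8 of the 14 higher genes turned below 0. In the remaining comparisons, 5 were higher and 2 lower in OM 7d than in OM 0h (11% and 1.96% of all genes). They were 2 and 1 in MY 24h against MY 0h (2.8% and 1.52%). In MY 7d against MY 0h they were 0 and 4 (0.498% and 2.29%). The lists were written with earlier results of these data known.

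All 6 co-receptors and accessory proteins (Cd14, Ly96, Lbp, Cd36, Cd180 and Ly86) were higher by at least 2-fold in OM 0h than in MY 0h, but Ly96 (0.50), Lbp (0.89) and Ly86 (0.94) were under 2-fold at equal macrophage markers, and Ly96 (0.92) also at a sum of 1000000. Lbp was kept only by omental libraries, being under an FPKM of 1 in every mesenteric one, so the filter bears on its direction. Cd14, which hands lipopolysaccharide to Tlr4 and lipopeptides to Tlr2, had an FPKM of 141, 693 and 126 in the omentum and 7.33, 34.9 and 11.2 in the mesentery. Its levels did not overlap between the tissues and were highest at 24 h in both. Relative to its partner, Cd14 was 14.0, 34.4 and 14.1 times the FPKM of Tlr4 in the omentum and 1.98, 4.91 and 1.71 times in the mesentery. Ly96, the protein that binds lipopolysaccharide together with Tlr4, had an FPKM of 54.4, 66.5 and 29.1 in the omentum and 24.2, 35.1 and 20.02 in the mesentery, so its levels overlapped. Cd180, a Toll-like receptor homologue that is well known from B cells, had an FPKM of 33.7 in OM 0h, 8.35 in OM 24h and 10.3 in OM 7d, and 5.86, 2.65 and 6.24 in the mesentery. It was the 1 gene of the list that was at least 2-fold lower in OM 24h than in OM 0h, at -1.89, and Cd14 was the 1 that was higher, at 2.28. At equal macrophage markers these differences were -3.55 for Cd180 and 0.29 for Cd14.

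Unc93b1, the chaperone that carries the nucleic acid receptors to endosomes, was the 1 gene of 7 in the list of endosomal trafficking and processing that was higher in OM 0h than in MY 0h, at 1.02, which became 0.78 at a sum of 1000000 and 0.36 at equal macrophage markers. It had an FPKM of 532, 718 and 427 in the omentum and 262, 408 and 356 in the mesentery. The proteases that cleave these receptors stood out at 24 h instead. In OM 24h, Lgmn, Ctsb, Ctsl and Ctss were at least 2-fold higher than in OM 0h, at 2.93, 2.09, 2.79 and 1.38, and at equal macrophage markers Ctss turned to -0.62 while Lgmn was 0.94, Ctsl 0.82 and Ctsb 0.10. Lgmn had an FPKM of 60.5 in OM 0h, 467 in OM 24h and 65.3 in OM 7d, and between 77.2 and 106 in the mesentery.

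Among the adaptors, Myd88, which serves all members but Tlr3, had an FPKM of 78.8, 116 and 89.8 in the omentum and 79.5, 105 and 90.2 in the mesentery, nearly the same in both tissues at each time. Ticam1, the adaptor of Tlr3 and of internalised Tlr4, was the 1 adaptor of the 5 expressed that was higher in OM 0h than in MY 0h, at 1.26, or 0.68 at equal macrophage markers. Its FPKM was 16.1 in OM 0h, 8.72 in OM 24h and 11.2 in OM 7d, against 6.17, 6.47 and 6.55 in the mesentery. The ratio of Myd88 to Ticam1 was thus 4.89 in OM 0h and between 8.04 and 16.2 in the other 5 libraries. No adaptor passed 2-fold between OM 24h and OM 0h. Of the 14 kinases and ubiquitin ligases, Irak2 was higher (1.49, or 0.87 at equal macrophage markers) and Ikbke, a kinase of the interferon branch, lower (-1.46) in the naive omentum than in the naive mesentery, and 12 were within 2-fold. Ikbke was also the 1 that was higher in OM 24h than in OM 0h, at 1.08, which became -0.73 at equal macrophage markers.

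Among the 9 transcription factors, Relb and Irf7 were lower in the naive omentum than in the naive mesentery. Relb, a subunit of the noncanonical NF-kB pathway, had an FPKM of between 63.7 and 65.9 in the omentum and between 197 and 290 in the mesentery. Irf7, a regulator of type I interferon genes, had an FPKM of 27.9 in OM 0h, 111 in OM 24h and 61.1 in OM 7d, and 74.5, 58.2 and 45.9 in the mesentery, so that it was higher in OM 24h than in OM 0h by 1.95 (-0.01 at equal macrophage markers). Nfkb1 was lower in OM 24h than in OM 0h, at -1.14. Of the 9 inhibitors, Irak3, Il1rl1, Atf3 and Dusp1 were higher and Socs1 lower in the naive omentum, but Il1rl1 was kept only by omental libraries. Irak3, a kinase homologue that restrains signalling by Myd88, had an FPKM of 18.2, 17.2 and 14.5 in the omentum and 4.93, 4.84 and 9.69 in the mesentery. Atf3 had 140, 101 and 183 against 6.96, 6.04 and 4.84, and Dusp1 had 611, 937 and 780 against 35.6, 92.3 and 51.6. Atf3 and Dusp1 are also early response genes that tissue dissociation is known to induce, and the part of that step in their levels was not tested.

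Of the 16 cytokines and effectors that these receptors are known to induce, 13 were expressed, and Ifnb1 was listed at 0 in all 6 libraries. The part of the receptors and that of tissue dissociation in the levels of these genes were not tested. Il1b, Il6, Il10, Cxcl1, Cxcl2 and Ptgs2 were higher by at least 2-fold in OM 0h than in MY 0h, and Cxcl10 and Ccl5 were lower. Of these, Cxcl1 and Ptgs2 were kept only by omental libraries, so the filter bears on their direction. Cxcl2, a neutrophil attractant, had an FPKM of 52.0 in OM 0h, 262 in OM 24h and 71.7 in OM 7d, and between 0.271 and 1.45 in the mesentery. Il1b had 112, 249 and 163 against 21.7, 20.5 and 12.2. Both were higher in every omental library than in any mesenteric one. Tnf, Il1b, Il6, Cxcl1, Cxcl2, Cxcl10 and Ccl3 were higher by at least 2-fold in OM 24h than in OM 0h and Ccl5 lower, but at equal macrophage markers only Cxcl10 (1.29) and Cxcl2 (0.33) of these 7 stayed above 0. Cxcl10, an interferon-induced chemokine, had an FPKM of 12.1, 124 and 116 in the omentum and 35.1, 21.2 and 13.9 in the mesentery, so that it was at least 2-fold lower in the omentum when naive and at least 2-fold higher at 24 h and 7 d. In MY 7d, Cxcl10, Ccl3, Ccl4 and Ccl5 were at least 2-fold lower than in MY 0h, while no receptor was.

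**Figure D5:**
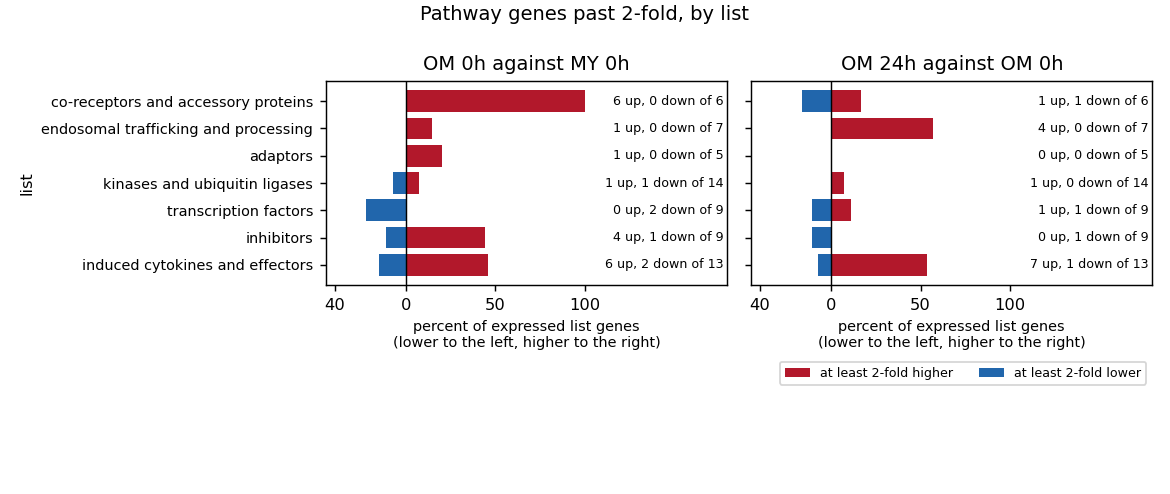
Percent of the expressed genes of each pathway list that were at least 2-fold higher (red, to the right) or lower (blue, to the left) in OM 0h than in MY 0h and in OM 24h than in OM 0h, with the counts at the right. All 6 co-receptors were higher in OM 0h than in MY 0h, of which 3 stayed at 2-fold at equal macrophage markers, and 4 of 7 endosomal and 7 of 13 induced genes were higher in OM 24h than in OM 0h, of which Ctss, Tnf, Il1b, Il6, Cxcl1 and Ccl3 reversed at equal macrophage markers. Of all expressed genes, 8.18% were higher in OM 0h than in MY 0h, and 11.9% in OM 24h than in OM 0h. Lbp, Il1rl1, Cxcl1 and Ptgs2 were kept only by omental libraries.

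For each receptor that spanned at least 2-fold, the 3 expressed genes with the most similar profile over the 6 libraries were found by the root mean square difference of centred log2(FPKM + 1) values, where 0 is an identical profile. Tlr2 was closest to Clec7a (0.14), which encodes the fungal receptor dectin-1, followed by Timp2 and Clec12a, another lectin receptor (both 0.20). Clec7a had an FPKM of 55.4, 214 and 82.0 in the omentum and 14.0, 17.8 and 17.5 in the mesentery. Tlr4 was closest to Acvrl1 (0.11), Sirpa (0.11) and Milr1 (0.12), and Tlr7 to Pon3 (0.10), Sirpb1a and Pira2 (both 0.12). Tlr8 was closest to Cln6 (0.12), Ctss (0.12), a protease of endosomes, and Stard8 (0.13), and Tlr13 to Slpi, Ctsa and Scarf1 (0.14 to 0.15). Tlr1 was closest to Kctd21, Rasl2-9 and Cd101 (0.13 to 0.14), and Tlr3 to Bcap29, Mgat1 (both 0.14) and Cd53 (0.15). Rasl2-9 was kept only by its level in OM 24h (FPKM 1.02), where Tlr1 was also highest. Its peak there was thus fixed by the filter. Tlr5 was closest to Slc29a1 (0.04), Lamtor1 (0.08) and Ap3s1 (0.10), although its own low level makes its profile the least sure. Tlr6 and Tlr9 spanned less than 2-fold and were not matched.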

How the data were processed

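RNA of sorted macrophages was sequenced in 6 libraries, 1 per tissue and time. The authors checked reads with FastQC 0.11.4, aligned them with STAR 2.4.2a (mm9, UCSC gene models) and deposited FPKM per gene symbol, computed with Cufflinks. These FPKM are not counts, so no count test was run, and columns of the table that belong to no sample numbered 0. Differences were computed as log2(FPKM + 1) with Python 3.11.15, numpy 2.4.6 and pandas 2.3.3, and drawn with matplotlib 3.10.9. Genes that reached an FPKM of 1 in any library were kept and counted at 2-fold, the fold that the study used to choose genes. The members, the lists of pathway and marker genes and the alternatives were chosen with earlier results of these data known. Named were all members, pathway genes at least 2-fold apart between the naive tissues or after injection in the omentum, other pathway genes and markers chosen after their values were seen, and the 3 nearest profiles. Alternatives were pseudocounts of 0.1 and 5, other filters, rescaling by median ratio, to a sum of 1000000 or to equal macrophage markers, and leaving out a time point. Counts were tested on simulated data. Positions are those of NCBIM37 and GENCODE M1, and promoters those of RefSeq (GRCm38.p6), placed in NCBIM37 by exact match.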

Additional observations from a re-analysis of the deposited data

Results flagged for a closer look

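Tlr3, the receptor for double-stranded RNA, moved in opposite directions in the tissues between the naive libraries and those of 7 d. On the log2(FPKM + 1) scale its difference from the naive library was -0.65 in the omentum (FPKM 4.76 in OM 0h and 2.66 in OM 7d) and 0.88 in the mesentery (FPKM 1.503 in MY 0h and 3.62 in MY 7d). Each direction rests on 1 library per group, and the difference between the tissues was not tested.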

How the results depend on the processing

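No paired analysis was possible because each group has 1 library. Under the alternatives planned, 38 of 48 counts of receptors and 40 of 42 counts of pathway genes stayed within 1.5 times. Of the log2 differences of receptors, 276 of 280 stayed within 0.58. Of those that were at least 2-fold, 0 changed sign, and sign changes of smaller differences were not counted. Shares of all expressed genes higher and lower at the same setting are given in brackets. A pseudocount of 5 left 2 receptors at least 2-fold apart between OM 0h and MY 0h (4.26% and 3.65%). It left 2 between OM 24h and MY 24h (7.49% and 4.95%) and 3 between OM 24h and OM 0h (5.99% and 2.93%). A pseudocount of 0.1 gave 1 in OM 7d against OM 0h, 2 in MY 24h against MY 0h (with 6 pathway genes) and 1 in MY 7d against MY 0h. A sum of 1000000 left 2 receptors in OM 24h against MY 24h (11.8% and 16.9%) and gave 1 in MY 7d against MY 0h (0.697% and 3.24%). It gave 6 pathway genes in MY 24h against MY 0h. In that last comparison, 2.83% of all genes were higher and 2.90% lower. Receptors apart between the tissues numbered 5 without the libraries of 24 h and 6 without those of 7 d, and 1 at equal macrophage markers.

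At equal macrophage markers, an alternative chosen after seeing the data, 39 of 70 log2 differences stayed within 0.58. Of the differences that were at least 2-fold, 8 changed sign. Smaller differences also changed sign and are not counted among these 8. Between OM 24h and MY 24h, 1 receptor was left, with Tlr4 at -0.051, Tlr7 at -0.25, Tlr8 at -0.14 and Tlr13 at -0.48. Between OM 24h and OM 0h, Tlr1 was at -0.63, Tlr2 at -0.26, Tlr8 at -0.31 and Tlr13 at -0.30. Pathway genes at least 2-fold apart numbered 48 in OM 24h against OM 0h, 21 in MY 24h against MY 0h and 8 in MY 7d against MY 0h. All expressed genes split into 1.42% higher and 70.4% lower in OM 24h against OM 0h. Their split was 0.597% and 43.1% in MY 24h against MY 0h, and 0.314% and 6.12% in MY 7d against MY 0h. This rescaling divides OM 24h by its high marker level, which lowers all of its genes. The study's methods give a range of reads over the samples but not the depth of each library. Low levels such as those of Tlr5 and Tlr9 are the least sure.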

Other observations

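The table also holds rows for Tlr11 and Tlr12, which in mice recognise profilin of protozoa and were not among the members. Both were lower in every omental library than in every mesenteric one, as was the case for 0 of the 10 members. At 0 h, 24 h and 7 d, Tlr12 had an FPKM of 2.195, 9.90 and 4.12 in the omentum against 14.9, 16.8 and 15.6 in the mesentery. Tlr11 had an FPKM of 5.55, 2.91 and 3.38 in the omentum and 7.06, 9.85 and 8.25 in the mesentery. Of all expressed genes, 17.7% were lower in this way. Siglech, a marker of plasmacytoid dendritic cells, had an FPKM of 1.15, 0.574 and 1.03 in the omentum and 29.9, 68.9 and 30.1 in the mesentery. Of the other 3 markers of that list, Ccr9 was also lower in every omental library, Pacsin1 overlapped, and Tcf4 was higher, at 25.7, 11.4 and 14.7 against 8.81, 8.22 and 10.2. The part of these cells in the levels of Tlr11 and Tlr12 was not tested.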
